A study of Mus musculus with 4 samples.

Results

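DN3-restricted intergenic regions are stretches of open chromatin that were called in immature thymocytes of the DN3 stage, in both genotypes of the study, and in neither library of naive CD4 T cells, and that lie away from genes. To find them, the peaks of 4 ATAC-seq lists on chromosomes 1 to 19 and X were merged into union regions wherever they shared at least 1 bp. A union region was kept when it held a peak of both DN3 lists and of no naive list, lay outside every protein-coding gene body of the RefSeq table and was more than 1 kb from every annotated gene end. This gave 9057 of 90270 union regions. All statements on where these regions were called follow from the rule that chose them and are given as a description.

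ATAC-seq marks accessible DNA by the insertion of a transposase, and the authors deposited 1 list of peaks per library. The 4 libraries were 1 each of thymic DN3 cells and splenic naive CD4 T cells from mice without Scd1 (stearoyl-CoA desaturase 1, which puts the double bond into saturated fatty acids) and from their littermate controls, all untreated. The control libraries carry HZ in their titles, which the labels do not explain. DN3 cells were taken as Lin-CD4-CD8-CD44-CD25+ cells by magnetic depletion and flow sorting, and naive cells with a magnetic kit. The labels do not state how many animals went into a library, the strain, the age or the cells in which Scd1 was lost. With 1 library per group no spread between replicates can be given, and nothing below carries a test.

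DN3 is a stage of T cell development at which Notch signals from the thymic stroma and the pre-T-cell receptor act. Cells at this stage rearrange the Tcrb, Tcrg and Tcrd genes, and those that assemble a functional beta chain divide and move on. Naive CD4 cells are the resting end point of the same lineage. Open chromatin between genes often marks enhancers, which can act on genes that are not their nearest neighbour, so the nearest gene named below is a position and not a target.

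The gene ends of cell type markers were checked against the labels. A region was called within 1 kb of an end of 11 of 11 DN3 markers in both DN3 lists, and of 7 and 8 of 11 in the control and knockout naive lists. Ptcra (the pre-T-cell receptor alpha chain), Rag2 (a recombinase subunit) and Dntt (the enzyme that adds untemplated bases) had none in either naive list. All 10 naive CD4 markers had a region in every list. Of 6 stromal markers, 4 and 3 had a region in the control and knockout DN3 lists and 1 in each naive list. Of 6 NK markers, 4 had one in each DN3 list and 2 in each naive list. All 4 gamma-delta markers had one in both DN3 lists, and 2 and 3 in the naive lists. All 4 markers of CD8 and double-positive cells had one in both DN3 lists and 3 in each naive list. Every list called 3 of 6 B cell, 2 of 6 myeloid and 1 of 4 erythroid markers, but the genes differed in part. Of the B cell markers, Cd79a was called in every list but DN3 control, and Pax5 in DN3 control alone. Of the myeloid markers, Itgam was called only in the naive lists and Lyz2 only in the DN3 lists. The part of other cells in the DN3-restricted intergenic regions was not tested.

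The lists give no read totals, so depth is seen only in the peaks themselves. They held 76814 peaks in DN3 control, 76437 in DN3 knockout, 46576 in naive control and 51297 in naive knockout, so that the naive lists were shorter. Among the 2000 weakest peaks of each list, the fewest fragments at a summit were 13, 12, 14 and 11 in that order. A region without a naive call is therefore one that did not reach the caller's threshold there, and not one shown to be closed. Of the 9057 regions, 235 were narrower than the narrowest peak of the naive control list.

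A few of these regions cover the start of an annotated long noncoding RNA. RefSeq start windows, which run from 250 bases before a transcript start to 50 after it, overlapped 22 of the 9057 regions with 26 windows of 22 lncRNA genes. These are alternative starts of genes with several transcripts, since every region lay more than 1 kb from the ends of the gene record. Of these windows, 12 lay wholly inside a region, and 5 of the 12 also held the DN3 control summit. The 5 are printed because each holds the summit of the control signal. They are 300 bases each, from RefSeq on GRCm38.p6, all on the plus strand and 5′ to 3′. Capitals mark the RUNX letters TGTGGT, the E-box letters CAGCTG and CACCTG and 3 forms of the ETS letters. The first form is CAGGAAG. The second, with a CpG, is written CCGGAAG. The third, which PU.1-like ETS factors prefer, reads GAGGAAG. Each was searched on both strands, and marked letters can overlap. RUNX, E protein and ETS factors are among the DNA-binding families of early T cells.
Gm33323, chr7:129785056-129785355: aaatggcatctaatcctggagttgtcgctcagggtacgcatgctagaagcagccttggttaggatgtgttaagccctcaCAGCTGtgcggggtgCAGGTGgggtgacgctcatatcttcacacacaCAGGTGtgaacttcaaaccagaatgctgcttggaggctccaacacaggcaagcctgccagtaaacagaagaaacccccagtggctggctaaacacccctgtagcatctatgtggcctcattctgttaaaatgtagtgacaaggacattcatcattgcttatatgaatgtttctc
Gm33148, chr7:142610569-142610868: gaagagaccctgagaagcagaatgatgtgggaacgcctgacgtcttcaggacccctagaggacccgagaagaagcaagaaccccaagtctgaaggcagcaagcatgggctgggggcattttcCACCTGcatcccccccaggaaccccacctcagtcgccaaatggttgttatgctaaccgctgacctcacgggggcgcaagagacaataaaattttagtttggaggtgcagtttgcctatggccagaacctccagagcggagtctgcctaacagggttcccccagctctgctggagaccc
Mir100hg, chr9:41474643-41474942: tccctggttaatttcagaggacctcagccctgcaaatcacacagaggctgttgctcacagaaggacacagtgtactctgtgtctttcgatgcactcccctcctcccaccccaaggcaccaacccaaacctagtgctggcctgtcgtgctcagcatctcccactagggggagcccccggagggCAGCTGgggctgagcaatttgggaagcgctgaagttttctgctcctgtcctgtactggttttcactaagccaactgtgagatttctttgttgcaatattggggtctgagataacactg
5930403N24Rik, chr10:37140820-37141119: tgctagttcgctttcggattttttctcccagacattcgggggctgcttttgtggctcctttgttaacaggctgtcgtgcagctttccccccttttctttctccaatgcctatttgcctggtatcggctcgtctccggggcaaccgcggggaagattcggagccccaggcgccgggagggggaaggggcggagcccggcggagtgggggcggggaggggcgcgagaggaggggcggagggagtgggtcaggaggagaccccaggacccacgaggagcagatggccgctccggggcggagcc
Gm34922, chr19:43645887-43646186: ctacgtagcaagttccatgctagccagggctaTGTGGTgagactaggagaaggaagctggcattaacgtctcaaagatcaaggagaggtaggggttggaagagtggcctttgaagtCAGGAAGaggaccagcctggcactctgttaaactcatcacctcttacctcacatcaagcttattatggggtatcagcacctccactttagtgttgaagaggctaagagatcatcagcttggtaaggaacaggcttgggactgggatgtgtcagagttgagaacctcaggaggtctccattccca

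In the Gm33323 window the DN3 control summit fell on base 95, the first base of a CAGGTG E-box, with a CAGCTG E-box at bases 80 to 85 and another CAGGTG at bases 127 to 132. The −log10 q (strength of a peak over its local background, as the authors' caller gave it) was 59.6 in the control list and 69.5 in the knockout list, and the region lay 149 kb from Wdr11. In the Gm34922 window the summit at base 94 lay between TGTGGT at bases 33 to 38 and CAGGAAG at bases 117 to 123, with 32.6 in control and 16.1 in knockout. The Gm33148 window, 39.5 kb from the imprinted growth factor gene Igf2, held 1 CACCTG at bases 123 to 128 and had 29.5 and 17.0. Its summit was at base 232, away from those letters. Mir100hg, the host of a microRNA cluster, held 1 CAGCTG at bases 183 to 188, with the summit at base 128, and had 19 and 21.6. The 5930403N24Rik window, 1.78 kb from Marcks, held none of the 6 motifs. It was 65.7% G and C and its region had 57.6 and 47.2. The summit there fell on base 293, near the end of the window, so the letters beyond it were not seen.

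Over all 26 windows, TGTGGT was present in 7 (26.9%, Wilson 95% interval 13.7 to 46.1), against 20.1% of all 11574 lncRNA windows, 16.6% of all 32619 RefSeq windows and 33.3% of 45 windows under intergenic regions called in all 4 lists. CAGGAAG was present in 8 (30.8%, 16.5 to 50), against 14.8% of lncRNA windows, 13.4% of all windows and 26.7% of those 45. Of the 8 windows, 3 were overlapping windows of Gm32605, with starts at 117899287, 117899299 and 117899301 on chromosome 10. The interval counts them as separate windows. The CAGCTG and CACCTG E-boxes were each in 5 (19.2%, 8.51 to 37.9), against 17.6% and 21.1% of lncRNA windows, 16.4% and 20.3% of all windows, and 26.7% of those 45 for either. GAGGAAG was in 5 (19.2%, 8.51 to 37.9), against 13.7% of lncRNA windows and 8.89% of those 45. CCGGAAG was in 1 (3.85%, 0.682 to 18.9), against 3.90% and 2.22%. Letters of further factor families, such as GATA, TCF1 and MYB, were also searched and their shares are not reported here. The median G and C content was 49.3% under the 26 windows, 48.3% in all 11574 lncRNA windows and 53.0% in all windows. These shares describe a small set, in which 7 of the 26 windows came from 3 genes. A match is not a bound site, and these windows were chosen after the peak lists had been seen.

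Position differed from that of common regions. Of the 25536 regions called in both DN3 lists and no naive list, which were 28.3% of all union regions, 35.5% were intergenic (34.9 to 36.1), 48.7% lay in a protein-coding gene and 15.8% within 1 kb of a gene end. Of the 37418 regions called in all 4 lists, 24.8% were intergenic (24.3 to 25.2) and 38.9% lay at a gene end. The 4613 regions called in both naive lists alone were intergenic in 35% (33.6 to 36.4), an interval that overlaps that of the DN3-restricted ones. Read the other way, 32.4% of the 27956 intergenic regions were DN3-restricted, against 30.9% of the regions in genes and 18.3% of those at gene ends.

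The DN3-restricted intergenic regions lay at a median of 25.5 kb from the nearest end of a protein-coding gene (quartiles 9.08 and 71.7 kb). Naive-restricted intergenic regions lay at 28.0 kb and intergenic regions of all 4 lists at 17.1 kb. A distance above 100 kb was found for 18.1% (17.3 to 18.9), 20.2% (18.3 to 22.2) and 11.8% of the 3 sets. Regions restricted to either cell type were thus farther from genes than common ones, and the intervals of the restricted sets overlapped. Strand was known for the nearest gene of 7046 regions, and 3785 of these (53.7%, 52.6 to 54.9) lay upstream of it. A noncoding gene or pseudogene body held 1639 (18.1%), against 16.9% of the intergenic regions called in all 4 lists.

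At the limit of the rule, the 3 regions just outside were 1001 bp from Emp2 (−log10 q 9.86 in control and 8.83 in knockout), 1005 bp from Slc45a4 (19.9 and 17.9) and 1007 bp from Gm34561 (5.85 and 5.15). The 3 DN3-restricted regions just inside, and so not counted, were 1000 bp from 6030407O03Rik (43.4 and 48.1), 999 bp from Dgkeos (30.6 and 35.6) and 997 bp from Gm13250 (120 and 102). At the far end, a region at chr14:82827066-82827515 was 1616 kb from Pcdh17, a protocadherin gene, and 1615 kb from the nearest naive peak. Its −log10 q was 17.2 in control and 6.68 in knockout. Another in the same desert, at chr14:82990576-82991267, reached 72.5 and 85.6. The widest region measured 3410 bp and lay 30.9 kb from Scrt2, with 23.4 and 15.3.

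As a set these regions stood below the middle of each DN3 list in strength, as did DN3-restricted regions at other positions. The median −log10 q was 19.2 in the control list (quartiles 10.2 and 37.7) and 17.0 in the knockout list (8.83 and 33.7), which placed the median region at percentile 34.7 and 34.6 of its list. DN3-restricted regions inside genes had medians of 19.9 and 17.0 in the same lists, and those at gene ends 20.5 and 17.5. Intergenic regions called in all 4 lists had medians of 52.9 and 48.4. Fragments at the summit, recovered from the deposited fold and p-value, ran from 13 to 517 with a median of 43.0 in control, and from 12 to 447 with a median of 39.0 in knockout. A −log10 q of at least 10 was reached by 75.2% in control and 70.9% in knockout.

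The share of regions without a naive call fell with strength at every position. Among intergenic regions called in both DN3 lists, 74.1% (72.6 to 75.6) of those in percentiles 0 to 20 of the control list had no naive call, and 14.8% (13.5 to 16.3) of those in percentiles 80 to 100. At gene ends the share fell from 72.4% to 1.51% (1.28 to 1.78). In percentiles 80 to 100, 347 of 2338 intergenic regions had no naive call, against 141 of 9333 at gene ends. Regions inside genes followed the intergenic ones, from 72.1% to 13.5%.

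**Figure D1:**
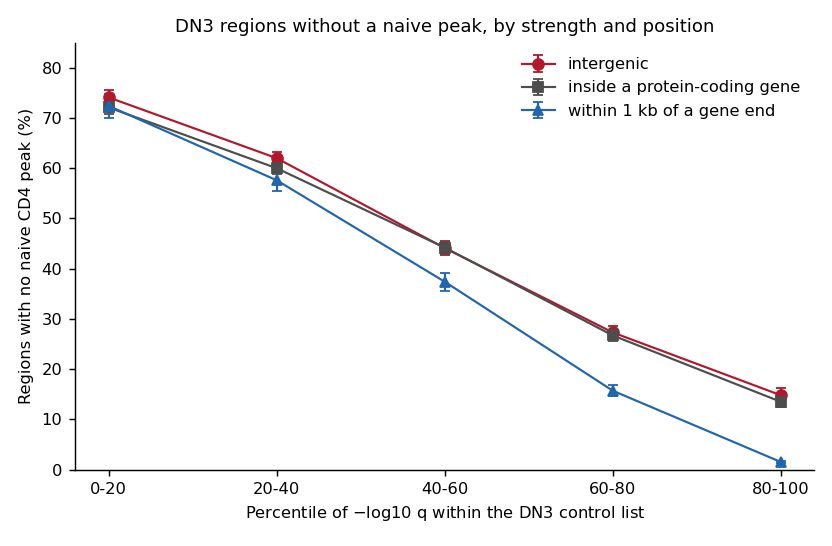
Percent of regions called in both DN3 lists that had no naive CD4 peak (vertical axis), by percentile of the −log10 q within the DN3 control list (horizontal axis) and by position. Bars are Wilson 95% intervals, which cover counting error only. The 3 positions start between 72.1% and 74.1%, and in percentiles 80 to 100 intergenic regions stand at 14.8% and gene ends at 1.51%.

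Values in both DN3 lists ran together. A single peak in each DN3 list made up 8974 of the 9057 regions. Their summits were a median of 25 bp apart and lay within 100 bp of each other in 87.1%. Across the 9057 regions the −log10 q of the DN3 lists had a Spearman rho of 0.91, where the points share 2 libraries and were all called in both. The 2 percentile ranks of a region were within 10 points of each other in 77.1%, against 87.5% of the stronger intergenic regions called in all 4 lists.

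**Figure D2:**
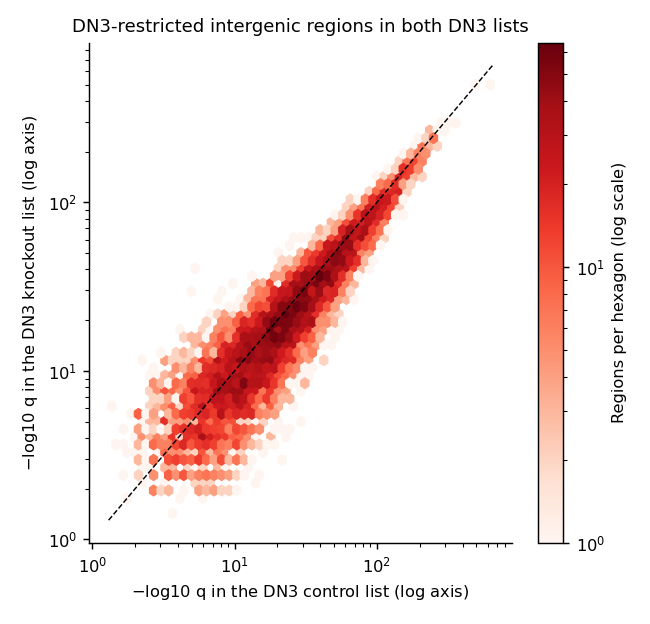
The −log10 q of each of the 9057 DN3-restricted intergenic regions in the DN3 control list (horizontal, log axis) and the DN3 knockout list (vertical, log axis), with darker hexagons holding more regions and the dashed line marking equal values. The cloud follows the line over the range from 1.37 to 626 in control and 1.43 to 500 in knockout and is widest at low values.

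The knockout lists give a look at regions chosen on the control lists alone, with values that the choice did not use. In the same union, 12716 intergenic regions had a DN3 control peak and no naive control peak. Of these, 80.3% (79.6 to 81.0) were also called in DN3 knockout and 9.99% (9.48 to 10.5) were called in naive knockout. Of the 9958 intergenic regions with a peak in both control lists, 96.5% were called in DN3 knockout and 96.1% in naive knockout. Chosen on the knockout lists instead, 11583 regions were called in DN3 control in 81.1% (80.4 to 81.8) and in naive control in 3.31% (3.0 to 3.65). The naive knockout list was longer than the naive control list, as stated above, and called more of the regions in question.

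Regions left out because only 1 DN3 list held them were weaker. Of intergenic regions without a naive peak, 2389 were called in DN3 control alone, with a median −log10 q of 6.31 and a median width of 294 bp. Another 2143 were called in DN3 knockout alone, with 5.35 and 287 bp.

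The surroundings of the regions were free of naive peaks to very different lengths. The nearest naive peak was a median of 12468 bp away. A naive peak lay within 1 kb of 474 regions (5.23%), and none lay within 100 kb of 1088 (12%). Density varied by chromosome, from 9.96 regions per Mb of intergenic sequence on chromosome 11 to 4.73 on chromosome 3, with 1.11 on chromosome X and 6.15 overall. Intergenic regions called in all 4 lists varied in a similar way. They had 10.5 per Mb on chromosome 11, 5.50 on chromosome 3, 1.72 on chromosome X and 6.29 on all chromosomes. On chromosome X, 21.4% of intergenic regions were DN3-restricted, against 32.4% on all chromosomes. The sex of the animals is not given in the labels.

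Among the 9057 regions, the highest values in both DN3 lists fell on a pair of narrow regions of chromosome 18. Intergenic regions called in all 4 lists reached 13539 in control and 13349 in knockout. One at chr18:85697947-85698207, 697 kb from Neto1, had −log10 q of 626 in control and 500 in knockout. The other at chr18:73533315-73533537, 39.1 kb from Mex3c, had 495 and 475. They measured 261 and 223 bp, below the narrowest naive control region, and stood 40.2-fold and 27.0-fold over background in the control list by the deposited value. The other 10 of the 12 strongest were 769 to 1174 bp wide.

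Among these 10 were regions beside genes of signalling and transcription. A region 302 kb upstream of Pik3r1, the regulatory subunit of PI3-kinase, had 324 in control and 290 in knockout, and the nearest naive peak was 236 kb away. A region 10.9 kb upstream of Efna1, an ephrin ligand, had 282 and 259, and 1 near Ccn4, a secreted matrix protein, had 287 and 263. A region 85.5 kb upstream of Rreb1, a zinc-finger factor of the Ras pathway, had 248 and 252. The region 222 kb from Myc had 241 and 245. Those near Lyzl1 (278 and 282), Lrp11 (257 and 238), Ppt1 (260 and 236) and Mmadhc (239 and 265) ranked with them. The values of the lists stand side by side and were not compared as a change.

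The regions gathered in places. Joined across gaps of up to 12500 bp, 1553 of them (17.1%, 16.4 to 17.9) stood in 432 groups of 3 or more. The same share was 6.94% (5.80 to 8.28) for the fewer naive-restricted intergenic regions and 22.2% (21.3 to 23.0) for those called in all 4 lists. The sets held 9057, 1614 and 9271 regions. With each list limited to its 46576 strongest peaks, the length of the shortest list, there were 3486 DN3-restricted intergenic regions and their grouped share was 4.96% (4.29 to 5.73), below the 6.94% above. The naive-restricted share was not recomputed at that length.

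The largest group, of 21 regions, spanned 65.7 kb at chr6:114494888-114560606, between 11.6 and 76.5 kb downstream of Hrh1, the histamine H1 receptor gene. No region of all 4 lists lay in it. Most were low, and the median value was 12.1 in control and 11.2 in knockout. The strongest, 28.5 kb from the gene, had 62.6 and 49.9. A further group of 9 followed at chr6:114573381-114620356, towards Atg7, a gene of autophagy, and its strongest region had 109 and 88.1. Over the whole 160 kb between both genes, 30 of 52 regions were DN3-restricted intergenic, 2 were called in all 4 lists, and 18 were called in a single DN3 list. The ends of Hrh1 itself were called in DN3 (30.8 and 25.5) and in neither naive list.

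Runx1, the core-binding factor that early thymocytes require, had the most regions of any gene together with Sall3, a zinc-finger gene of development, at 22 each. With lists of equal length Runx1 had 4, fewer than Gsdmc (11), Pik3r1 (9), Zfp64 (8), Hes1 (7), Ccnd1 (6) and Hrh1 (5), so its rank depends on list length. All 22 of Runx1 lay upstream, from 15.6 to 364 kb. The strongest, at chr16:93190303-93192438, had 121 in control and 140 in knockout, and the weakest had 6.81 and 3.98 as the lowest value of each list. In the 757 kb between Runx1 and Setd4, 37 of 91 regions were DN3-restricted intergenic, 23 were common to all 4 lists and 5 were naive-restricted. A group of 11 regions stood 285 to 364 kb from Runx1 with 1 common region in its span, and a group of 10 followed at 292 to 365 kb from Setd4 with 0. Neither span held a naive-restricted region.

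**Figure D3:**
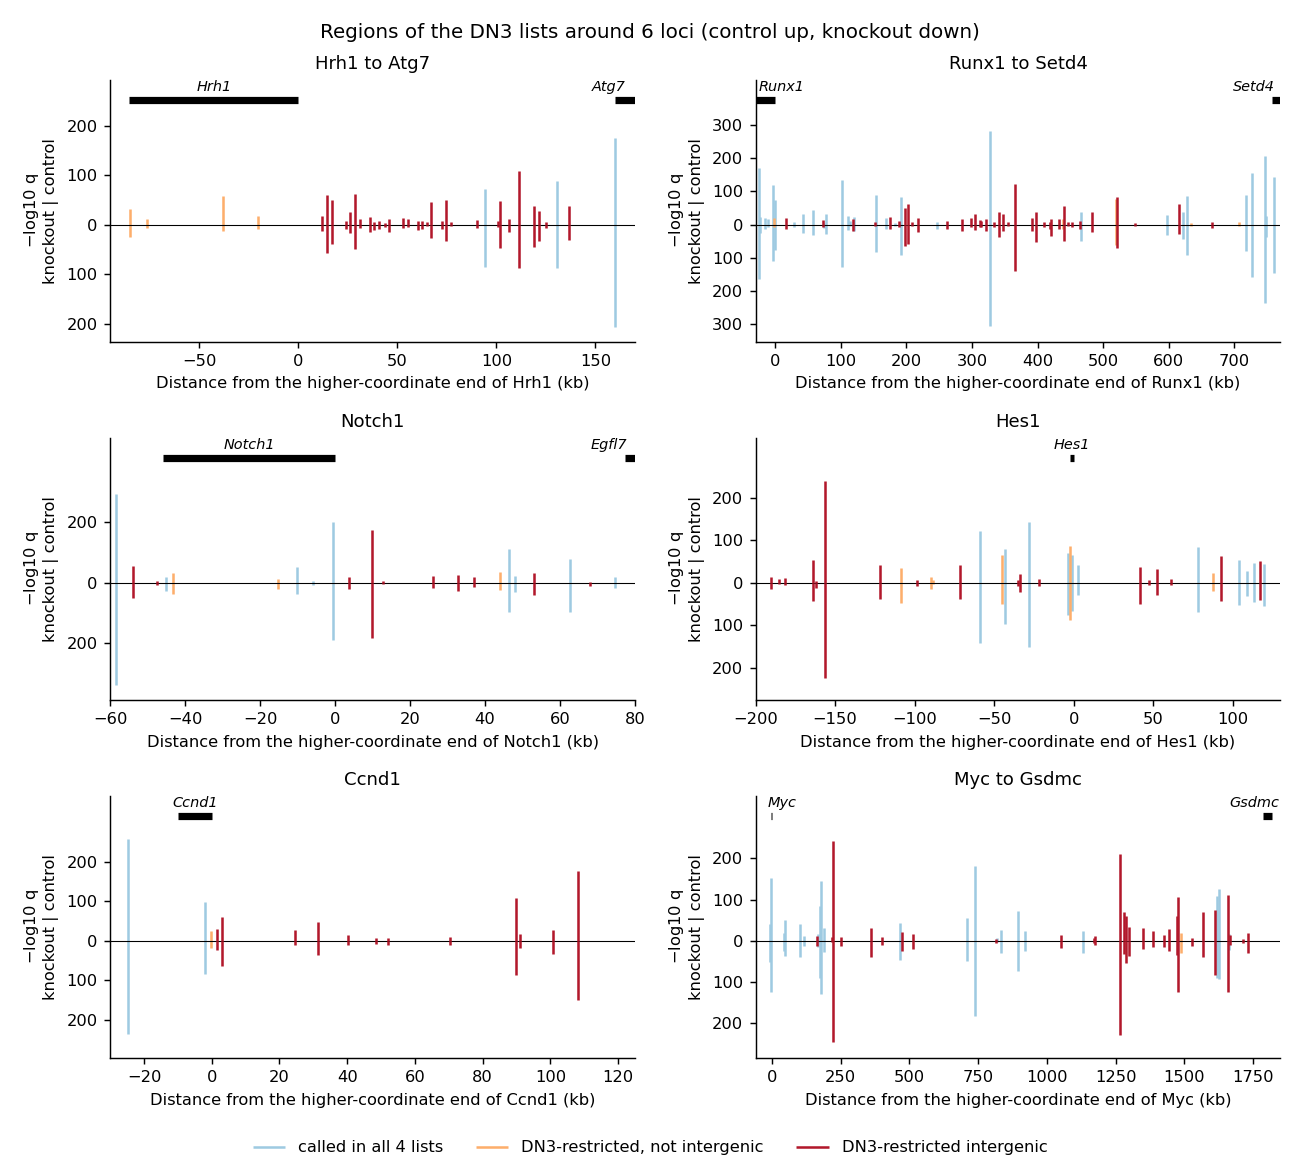
DN3-restricted intergenic regions (red), other DN3-restricted regions (orange) and regions of all 4 lists (blue) around 6 loci, by −log10 q (vertical axis, control upward and knockout downward) and distance in kb from the higher-coordinate end of the first gene named (horizontal axis). Regions with other calling patterns are not drawn, and black bars are gene bodies. Red lines fill the stretch beyond Hrh1, where 30 of 52 regions are of this kind, and are mirrored across genotypes at all 6 loci.

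Other large groups lay elsewhere. A group of 10 spanned 59.2 kb at chr2:93063121-93122330, between Prdm11, a gene of a methyltransferase family, and Trp53i11, with a highest −log10 q of 67.6 in control and 69.1 in knockout and no common region among the 13 in its span. A group of 9 spanned 44.4 kb near Tcof1, a gene of ribosome production, and Arsi on chromosome 18, with highest values of 138 in both lists. A group of 8 lay by Tns3, a focal adhesion gene, at chr11:8674633-8717695, with a median of 34.8 in control and 28.9 in knockout and no common region. A further 8 lay between Spsb1 and Slc25a33 among 4 common and 2 naive-restricted regions, and none of the 8 passed 25.8 in control or 28.5 in knockout. Another group of 8, tied with these in size, lay 138 to 191 kb from Sdk2, an adhesion gene, and its strongest region had 239 and 247.

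Among Notch pathway genes, Notch1 (the receptor itself) was the nearest gene of 8 intergenic regions, of which 7 were DN3-restricted and none was common to all 4 lists. Of these, 6 lay upstream and formed 1 group of 33.8 kb. The strongest, at chr2:26513009-26514242 and 9.19 kb upstream, had 174 in control and 181 in knockout, with 350 and 361 fragments at its summit. The other 6 ran from 4.23 to 24.5 in control and from 4.11 to 28.8 in knockout, well below it. The ends of Notch1 were called in every list (201, 188, 464 and 329 in DN3 control, DN3 knockout, naive control and naive knockout). The 77.3 kb between Notch1 and Egfl7 held 16 regions in all, counting those at gene ends and those nearer another gene. Of these 16, 8 were DN3-restricted intergenic and 4 were common to all 4 lists.

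Hes1, a repressor that Notch induces directly, was the nearest gene of 26 intergenic regions, of which 17 were DN3-restricted and 2 common. They lay on both sides of the gene, from 18.8 to 187 kb away. The strongest, 153 kb from the gene at chr16:29910956-29912020, had 239 in control and 224 in knockout, and the next had 63.6 and 43.7. The ends of Hes1 were called in all 4 lists. Counting regions at gene ends and those nearer another gene, the flanks of Hes1 held more common regions. Between Opa1 and Hes1, 23 of 47 regions were DN3-restricted intergenic and 8 common. Between Hes1 and Cpn2, 10 of 27 were DN3-restricted intergenic and 8 common. Rbpj, the DNA-binding partner of Notch, and Dll1, a ligand, had 3 regions each. For Rbpj these ran from 18.1 to 44.5 in control and from 17.0 to 27.5 in knockout.

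Over the 30 genes of the Notch list, 13 (43.3%) had at least 1 region, against 20.7% of all protein-coding genes, and 16 had a common intergenic region. Among them, 39 of their 91 intergenic regions (42.9%, 33.2 to 53.1) were DN3-restricted. This stood beside 32.4% over all intergenic regions. Hes1 and Notch1 held 24 of the 39 together. With lists of equal length the share was 26.5% (16.2 to 40.3) against 18.9% of all intergenic regions, with 2 regions at Notch1 and 7 at Hes1.

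Genes of growth and division came next. Ccnd1, the D-type cyclin that drives entry into S phase, was the nearest gene of 15 intergenic regions, of which 12 were DN3-restricted and none was common. The strongest lay 108 kb away at chr7:145047420-145048422, with 178 in control and 150 in knockout, and the second at 89.3 kb had 108 and 86.1. The ends of Ccnd1 were called in both DN3 lists (26.2 and 19.1) and in neither naive list. Mki67, the proliferation antigen, had 18 of 25, all upstream at 30.1 to 578 kb, with a strongest value of 87.2 in control and 66.0 in knockout. Its ends were called in all 4 lists. Cdk6, the kinase partner of D-type cyclins, had 3.

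Myc, the growth regulator, had a long flank in which the kinds of region were unevenly placed. Between Myc and Gsdmc, a gasdermin gene 1786 kb on, 29 of 78 regions were DN3-restricted intergenic, 19 were common and 10 naive-restricted. Of the 29, 20 lay more than 1000 kb from Myc. The region at chr15:62212090-62212959, 222 kb from Myc, was the strongest, with 241 in control and 245 in knockout. The second, at chr15:63255140-63256093 and 1265 kb from Myc, had 209 and 227, and the nearest naive peak was 132 kb away. Regions at 1476 and 1657 kb had 107 and 123, and 110 and 123. By nearest gene, Gsdmc held 20 of 31 intergenic regions with 6 common and 0 naive-restricted, and Myc held 9 of 53 with 15 common and 15 naive-restricted. Distal elements of this flank are known to act on Myc in T cells. The ends of Myc were called in all 4 lists and those of Gsdmc in none.

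Over the 26 genes of cell cycle and Myc, 51 of 144 intergenic regions (35.4%, 28.1 to 43.5) were DN3-restricted, close to the 32.4% of all. Ccnd1, Mki67 and Myc carried 39 of the 51. With lists of equal length the share was 16.7% (10.4 to 25.7), on the other side of the 18.9% of all, and Ccnd1 had 6 regions and Mki67 4.

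Genes expressed in progenitors and shut off as T cells commit, the progenitor legacy list, had 53 of 114 (46.5%, 37.6 to 55.6), beside 32.4% of all intergenic regions. With lists of equal length this was 29.6% (19.1 to 42.8) beside 18.9%, and Kit had 1 region. Kit, the stem cell factor receptor, was the nearest gene of 9 and its neighbour Kdr, an endothelial growth factor receptor on the stroma list, of 10. In the 276 kb between them, 15 of 24 regions were DN3-restricted intergenic and 2 common. The strongest near Kit, 73.3 kb downstream, had 75.6 in control and 64.3 in knockout. The strongest near Kdr had 114 in control, and the highest knockout value there was 81.3. The ends of Kit were called at 177 and 204 in DN3 and at 9.75 in naive knockout alone, and those of Kdr at 82.0 and 83.3 in DN3 and at 5.02 and 2.65 in naive cells.

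Mef2c, a progenitor factor, had 7 of 15 with none common, and its strongest region 44.8 kb upstream had 116 in control and 76.1 in knockout. Its own ends were called in no list. Erg, an ETS factor of progenitors and early T cells, had 6 of 13. The strongest was 6.52 kb downstream with 53.3 and 37.8. Bcl11a, a repressor of progenitors, had 5 of 12, all with control values between 6.31 and 30.7.

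The T lineage transcription factors held many regions but a smaller share. Of the 32 genes, 23 (71.9%) had at least 1, against 20.7% of all protein-coding genes, and 26 had a common intergenic region. Of theirs, 133 of 527 intergenic regions (25.2%, 21.7 to 29.1) were DN3-restricted, below the 32.4% of all. The same genes held 196 common and 59 naive-restricted intergenic regions. Gata3, which commitment requires, had 12 of 47, beside 12 common and 5 naive-restricted. Its DN3-restricted regions all lay downstream between 29.0 and 1183 kb, and the strongest at 60.8 kb had 91.4 in control and 70.7 in knockout. Id2, an inhibitor of E proteins, had 11 of 42, beside 20 common and 1 naive-restricted. A DN3-restricted region 82.4 kb upstream of Id2 had 141 and 137. Sox4, a factor of early lymphoid cells, had 18 of 53, beside 19 common and 2 naive-restricted. Its strongest DN3-restricted region 37.9 kb upstream had 106 and 118.

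Genes of the pre-T-cell receptor and recombination had 21 of 81 (25.9%, 17.6 to 36.4), an interval that holds the 32.4% of all intergenic regions. Syk, a kinase of pre-receptor signalling, had 5, up to 90.6 in control and 63.7 in knockout. Lcp2, the adaptor SLP-76, had 3, of which 1 at 24.3 kb downstream had 197 and 140. Dntt had 2, the stronger at 34.5 in control and 25.7 as the highest knockout value.

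Besides the T lineage factors, 5 lists had an interval below the 32.4% of all intergenic regions. Naive homing and quiescence genes had 49 of 263 (18.6%, 14.4 to 23.8), and these genes also held 102 common and 49 naive-restricted regions. Foxo1, the quiescence factor, had 5 of 38 with 20 common, and S1pr1, the receptor for thymic exit, had 5 of 25 with 14 common. Cytokine receptor and STAT genes had 15 of 107 (14%, 8.68 to 21.8), AP-1 and immediate early genes 14 of 91 (15.4%, 9.39 to 24.2), genes of CD4, CD8 and the double-positive stage 14 of 73 (19.2%, 11.8 to 29.7), and housekeeping genes 2 of 28 (7.14%, 1.98 to 22.6).

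Lists of other lineages are set beside the same 32.4%, which lay inside the interval of each. B lineage genes had 10 of 20 (29.9 to 70.1), myeloid genes 18 of 58 (31.0%, 20.6 to 43.8), NK and innate lymphoid genes 6 of 30 (9.51 to 37.3), gamma-delta and innate-like T cell genes 23 of 92 (25%, 17.3 to 34.7), and stroma and endothelium genes 20 of 48 (41.7%, 28.8 to 55.7). Among B lineage genes, Pax5, the B cell identity factor, had 3 of 3 with control values of 9.63, 11.8 and 18.1. Of the stroma list, Kdr and Pdgfra held 13 of the 20 regions, and both flank Kit on chromosome 5.

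Genes of fatty acid synthesis and desaturation, the pathway of Scd1, had 17 of 53 (32.1%, 21.1 to 45.5), next to 32.4% for all intergenic regions. Insig1, which holds the sterol sensor in the endoplasmic reticulum, had 4 of 8, and its strongest region 6.77 kb upstream had 111 in control and 136 in knockout. Elovl6, an elongase of saturated fatty acids, had 2, of which 1 at 61.8 kb upstream had 137 and 105. Acsl4, an acyl-CoA ligase, had 4, up to 54.1 and 45.5. Wnt and beta-catenin genes had 20 of 62 (32.3%, 22.0 to 44.6). Wnt3a, a ligand, had 1 region 2.86 kb upstream with 128 and 144, and Wnt4, another ligand, had 4 of 5.

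**Figure D4:**
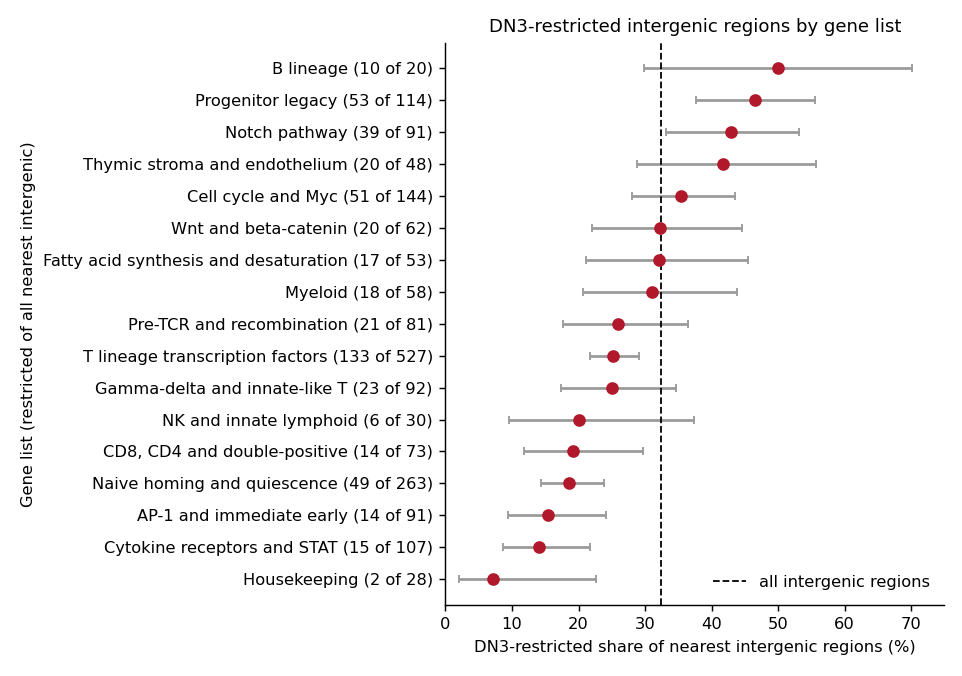
Share of the intergenic regions nearest to the genes of each list that were DN3-restricted (points, percent), with Wilson 95% intervals that cover counting error only and the 32.4% of all intergenic regions as a dashed line. Counts are given beside each list name. B lineage (10 of 20), progenitor (46.5%) and Notch genes (42.9%) stand highest, and housekeeping genes (7.14%) lowest.

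Several genes outside the lists were nearest to many regions. Pik3r1 had 21 of 39, of which 18 lay upstream, and Zmiz1, a coactivator that works with Notch1 in T cells, had 20 of 39, up to 158 in control and 170 in knockout. Pik3r1 and Zmiz1 also had 8 common intergenic regions each. Zfp64, a zinc-finger gene, had 19 of 30 with none common to all 4 lists, at 14.7 to 314 kb, and its ends were called in every list. Sdk2, an adhesion gene, had 17 of 25 with 3 common, and its strongest DN3-restricted region 181 kb upstream had 239 and 247. Adgrl2, an adhesion receptor, had 20 of 45 across 2069 kb of flank, with 8 common. Gadd45g, a stress response gene, had 18 of 46, with 19 common and 3 naive-restricted. Over all intergenic regions the DN3-restricted share was 32.4%. In all, 4480 of 21631 protein-coding genes (20.7%) were the nearest gene of at least 1 region. Intergenic regions of all 4 lists had 21.9% of genes. At least 5 regions fell to 340 genes, which held 28.2% of the 9057, and at least 10 fell to 64 genes.

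The antigen receptor loci differed among themselves. The Tcrg locus (gamma chain, 174 kb at chr13:19178042-19352343) had 26 regions, of which 20 were DN3-restricted, 3 were common and 0 were naive-restricted. The intergenic rule kept 13 of the 20, and with lists of equal length it gave 3. The strongest had −log10 q of 96.3 and 78.1 at chr13:19283127-19283664, 93.0 and 91.2 at chr13:19300652-19301574, and 85.2 and 88.2 at chr13:19235818-19236816, in control and knockout. The other 10 ran from 3.25 to 28.5 in control. None of the 13 was outside every annotated gene body, since a record of another type than protein-coding covers the locus.

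The joint Tcra and Tcrd locus (1796 kb) had 109 regions, of which 28 were DN3-restricted, 13 were kept by the rule and 32 were common. The strongest of the 13, at chr14:54110850-54111632 and 1836 bp from the delta diversity segment Trdd1, had 121 and 119. A group of 3 stood there. At the Tcrb locus (667 kb), whose rearrangement defines the DN3 stage, 8 of 47 regions were DN3-restricted and 4 were kept, up to 25.2 and 33.3, while 21 were common. At the Igh locus 22 of 109 were DN3-restricted and 8 were kept, with 49 common. The Igk locus had 3 regions and the Igl locus 0, and no region of either was DN3-restricted. Gene segments in these loci are near-identical copies in part, so that reads there may not map to 1 place, and how the authors treated such reads is not given in the sources used here.

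Gene ends near the regions were called separately from them. A gene counted as called in a list when a peak of that list lay within 1 kb of either end, so lists could differ in the end. Calls in both DN3 lists and no naive list were found at 1637 of 21631 protein-coding genes (7.57%), and calls in all 4 lists at 56.1%. Among genes with none of the 9057 regions as neighbour the DN3-only share was 6.27% (5.92 to 6.65). It was 11.5% (10.4 to 12.8) with 1 region, 14.9% (13.2 to 16.7) with 2 to 4, 9.06% (6.21 to 13) with 5 to 9 and 10.9% (5.40 to 20.9) with 10 or more. Genes with at least 1 DN3-restricted and no common intergenic region had 17.6% (16.1 to 19.2), and genes with the reverse had 5.64% (4.81 to 6.61). The DN3-only share did not rise with the number of regions beyond 2 to 4. All these shares count genes called in no list, which were 35.4% of the genes with none of the regions. Genes called in no list were 19.6%, 15.9%, 12.3% and 15.6% of those with 1, 2 to 4, 5 to 9 and 10 or more. The DN3-only shares are therefore not shares of the genes with a called end. Even with 10 or more regions, 71.9% (59.9 to 81.4) of genes were called in all 4 lists at one end or the other, Runx1, Zfp64 and Mki67 among them.

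**Figure D5:**
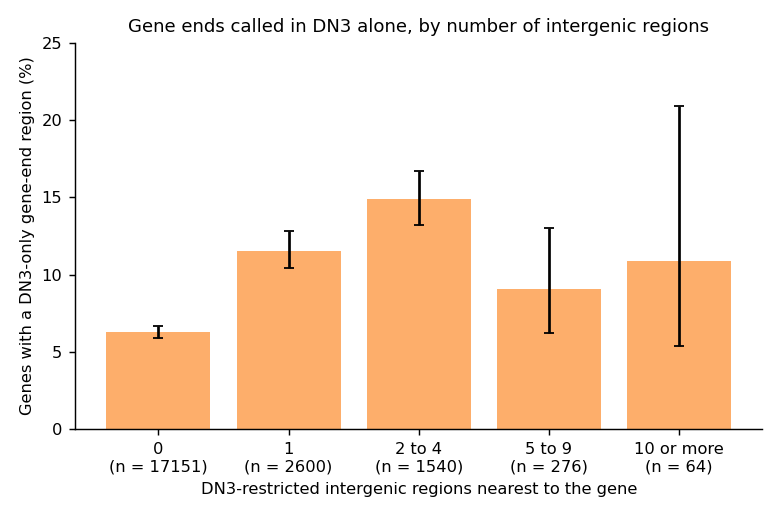
Percent of protein-coding genes called at either end in both DN3 lists and at neither end in any naive list (bars, with Wilson 95% intervals). Genes are split by the number of DN3-restricted intergenic regions that have the gene as nearest gene. The share is 6.27% with none, highest at 14.9% with 2 to 4, and 10.9% with 10 or more, where only 64 genes stand. Genes called in no list are counted too, and were 35.4% of genes with none and 15.9% of those with 2 to 4.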

How the data were processed

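ATAC-seq was performed on 4 libraries, 1 per group. Per the submitters' processing notes, Trimmomatic, BWA and MACS2 were used with build mm10, and their versions are not stated there. The deposited peak lists hold a score, a fold ratio over local background, a −log10 p and a −log10 q for each peak, and a summit position, all as the authors' caller gave them. Fold and q were used within a list only.

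From these, union regions were made by 1 bp overlap on chromosomes 1 to 19 and X, and placed against 49554 genes (21631 protein-coding) of the RefSeq table on GRCm38.p6. Whole fragments at a summit were solved from the deposited fold ratio and −log10 p within a tolerance of 0.05. They are the height of the caller's pileup there. Whether the caller counted whole fragments or single reads was not checked. Shares carry Wilson 95% intervals, for counting error alone. Python 3.11.15, numpy 2.4.6, pandas 2.3.3 and scipy 1.17.1 were used, and matplotlib 3.10.9 drew the plots. The 17 gene lists held 376 symbols, of which 374 matched.

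The regions, lists and tests were chosen with earlier results of these data known. Named were the 12 strongest regions by the lower of both percentile ranks, the 12 genes with most regions, the 8 largest groups (ties by position), up to 4 genes per list, the 5 widest and 5 farthest regions, 3 on each side of the 1 kb limit, and the antigen receptor loci. Some items that this rule names are not reported here. The stretches between named genes and the start windows were added after values were seen. Counts at 12 alternative settings are given in the closing section. Motifs and base composition at region summits were not analysed here.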

Additional observations from a re-analysis of the deposited data

How the results depend on the processing

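The number of regions, the shares and medians over them, the 17 list shares, the counts for 10 genes and the Tcrg count were recomputed at 12 other settings, and the grouped share at 2 other joining distances. Other values of the report were not. With only the 46576 strongest peaks of each list, there were 3486 regions, 34.0% of DN3-restricted regions were intergenic, 4.96% stood in groups of 3 or more, 10.8% of genes had a region, and the median −log10 q was 47.3 in control and 41.5 in knockout. At this setting Runx1 had 4 regions in place of 22, Hrh1 5 in place of 21, Mki67 4 in place of 18, Hes1 7 in place of 17, Pik3r1 9 in place of 21, Zfp64 8 in place of 19, Gsdmc 11 in place of 20, Ccnd1 6 in place of 12, Notch1 2 in place of 7, Kit 1 in place of 9 and the Tcrg locus 3 in place of 13. Groups held 4.22% of regions at a joining distance of 5 kb and 31.7% at 25 kb. A limit of 10 kb from gene ends gave 4246 regions, 16.6% intergenic, a median distance of 45.2 kb, 10.2% of genes, and medians of 20.6 and 17.9. A limit of 5 kb gave 24.5%, 34.0 kb, 15.6% in groups, 14.8% of genes and 17.6 in knockout. Outside every gene body the Tcrg locus had 0, and the other values were 29.0%, 23.5 kb, 15.6% and 18.5%, and with the ends of protein-coding genes only 39.5%, 19.6% in groups and 22.2% of genes. The control lists alone gave 23.5 kb, 25.4%, 26.2% and 16.3, and the knockout lists alone 24.3 kb, 22.5%, 24.7% and 13.6. Peaks with a −log10 q of at least 5 in all lists gave 15.5% in groups, 19.5% of genes, and medians of 22.2 and 19.7. The same limit in the DN3 lists gave 14.9%, 19%, 22.4 and 19.7. Peaks at least as wide as the narrowest naive control peak gave 14.3%, 19%, 22.7 and 19.7, and they leave out both narrow chromosome 18 regions. Removing regions with a naive peak within 1 kb gave 19.9% of genes. Joining peaks up to 100 bp apart moved none of these values beyond its interval. Beside the share of all intergenic regions at the same setting, progenitor, Notch and stroma genes stood above it in 12 of 12 alternatives and B lineage genes in 11. The T lineage factors and the pre-T-cell receptor, naive, double-positive stage, NK, cytokine, AP-1 and housekeeping genes stood above it in 0 of 12. The fatty acid genes did so in 6.

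No paired analysis was possible because each group has 1 library and no test was made. The alternatives for motifs and base composition at summits were not run, since no genome was used here.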
